A study of Mus musculus with 28 samples.

Results

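The genes described here encode the initiation and elongation factors of translation, the proteins that start each polypeptide and lengthen it. Membership was set by symbol alone, as every gene whose symbol begins with Eif1 to Eif6 or with Eef1 or Eef2, leaving out the Eif2ak kinases. No measured value entered that rule, but the family itself was chosen with earlier results of these data known. Of 23420 gene symbols in the count files, 63 met the rule, and 59 of these were among the 13338 genes that passed the filter on low counts. The 4 that did not pass were Eef1a2, the eEF1A form known from muscle and nerve, with 3 counts in all 28 libraries together, Eif2c4 with 92, and Eif3j1 and Eif4e1b with 0. Eif3j2 passed, but close to the floor, and 91.8% of its 50-base words also occur in other genes (90.8% in Eif3j1), so no result is drawn from it. The symbols Eif2c1 to Eif2c4 are older names of the Argonaute proteins, which carry small RNAs and are not translation factors. The rule takes them in, so they remain in the counts, shares and medians given for the factors as a whole. Their own values are described apart.

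In initiation, eIF2 brings the initiator tRNA to the small ribosomal subunit, eIF3 holds that complex together, and the cap-binding protein eIF4E, the scaffold eIF4G and the helicase eIF4A recruit the mRNA, after which eIF1, eIF1A and eIF5 govern the choice of start codon. Elongation then depends on eEF1A, which delivers aminoacyl-tRNA, on its exchange factor eEF1B, and on eEF2, which moves the ribosome along. The kinase complex mTORC1 frees eIF4E by phosphorylating the 4E-binding proteins, the eIF2 kinases lower initiation by phosphorylating the alpha subunit of eIF2, and T cells are known to change these controls when they are activated.

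Total RNA was sequenced from sorted CD4 T cells of male littermate mice, aged 6 to 8 weeks, that carried a Foxp3-gfp reporter allele, either intact (WT) or without the Foxp3 enhancer called conserved non-coding sequence 3 (Foxp3-deltaCNS3-gfp, KO). The Foxp3 protein is the lineage factor of regulatory T (Treg) cells. Both genotypes therefore carried the reporter, and the KO is a germline deletion of a regulatory element rather than of the gene. The 8 groups were WT and KO thymic Treg cells, WT and KO thymic CD4 single-positive cells that are not Treg cells (CD4SP), and WT and KO splenic Treg cells of the classes that the titles call rTreg and aTreg without expanding r and a. The titles call the CD4SP cells mCD4SP, likewise without expanding m. Each group had 3 WT or 4 KO libraries. The design text speaks of a pair of littermates and does not say which mouse gave which library, so libraries of a group may share a mouse and p-values measure only the spread between these libraries.

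Many mRNAs of the translation machinery begin with a C followed by an unbroken run of pyrimidines, the 5′ terminal oligopyrimidine motif through which mTORC1 and the RNA-binding protein Larp1 control their translation. A run of that kind, a C followed by at least 4 pyrimidines on the gene's own strand, was sought within 20 bases of each start annotated by RefSeq (GRCm38.p6). It was found in 20 of the 45 tested factors that had a promoter entry (44.4%) and in 55% of the 10581 tested genes that had one, so these letters are common at gene starts. The windows below are shown because results given later turn on these genes. Eef1a1, Eef2, Eif3k and Eif2s3x fell in aTreg against rTreg cells in both genotypes, Eif4b was higher in thymic Treg cells, and Eif2s3y is the Y-linked copy of Eif2s3x. Of the 14 factors that fell there in both genotypes 9 had a promoter entry, and of these 4 held a run and 5, Eef1b2, Eif1, Eif3d, Eif3g and Eif4a2, did not. In Eef1b2, Eif3g and Eif4a2 the longest run was 4 bases, against the 5 asked for. Eef1d, Eef1g, Eif2c2, Eif3e and Eif3h had no entry and were not scanned. The result depends on the annotated starts, which were not checked, so a gene without a run may still carry the motif. Each window is read 5′ to 3′ on the gene's strand, with the pyrimidine run in capitals. They lie at chr9:78481710-78481739 (minus strand), chr10:81176636-81176665 (plus), chr7:28981856-28981885 (minus), chr15:102073773-102073802 (plus), chrX:94212633-94212662 (minus) and chrY:1010586-1010615 (plus).
Eef1a1: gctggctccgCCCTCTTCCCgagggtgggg
Eef2: cgtcagcggtCTCTTCCgccgcagccgccg
Eif3k: gctgaaagcgCCTTTCCCTTTgccttcctt
Eif4b: cgccgcgccaCCCCCTCgcgctgctttacg
Eif2s3x: cgagcattttCCTTTTCTCTCCgagcaaga
Eif2s3y: gccacagccaCTTCCTTCTTTCgtgagcaa

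The E-box CACGTG, which reads the same on both strands and is the preferred site of Myc and its relatives, was found in the 300 bases from 250 before to 50 after the start in 12 of the same 45 factors (26.7%), against 11.4% of all tested genes with a promoter entry. A match is a description of the sequence and not evidence that a protein binds there. It is shown for the elongation factor Eef2, its kinase Eef2k, the cap-binding protein Eif4e and Eif5a2, with the motif in capitals. The windows lie at chr10:81176578-81176603, chr7:120842790-120842815, chr3:138527030-138527055 and chr3:28781125-28781150, all on the plus strand.
Eef2: ccggcgccgtCACGTGacgcacccaa
Eef2k: cggggacggcCACGTGagcccgggcg
Eif4e: cgccagcgacCACGTGatcacttttt
Eif5a2: taatccgcagCACGTGgggttgccag

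Library depth ran from 22037995 to 40754492 counts in genes. Foxp3 was between 446 and 614 CPM (counts scaled to a common library size) in KO thymic Treg cells and between 642 and 671 CPM in WT, and between 1.07 and 3.49 CPM in the CD4SP libraries of both genotypes. The 4 Treg markers fixed for this check summed to between 4120 and 4896 CPM in the Treg libraries. In CD4SP libraries they summed to between 78.0 and 104 CPM in WT and between 115 and 326 CPM in KO. Of the 4, 3 were called higher and 1 lower in KO than in WT CD4SP cells, where 0.195% of all genes passed. The highest CD4SP value, 326 CPM, was in KO CD4SP library 2, which also held the most B-cell (27.2 CPM) and myeloid (274 CPM) marker counts of the CD4SP libraries, and values of KO thymic Treg against KO CD4SP cells without it are given with that comparison. The splenic classes differed in the activation marker Klrg1, which was at 239 CPM in WT aTreg and 12.3 CPM in WT rTreg cells.

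As a group the factors took between 1.93 and 2.57% of the gene counts of a library. Their share was 2.46% ± 0.04 (SD, n = 3) in WT rTreg and 2.54% ± 0.04 (SD, n = 4) in KO rTreg cells, but 2.04% ± 0.04 (n = 3) and 2.03% ± 0.10 (n = 4) in WT and KO aTreg cells. The thymic groups lay between, at 2.33 to 2.41%. Eef1a1 alone supplied between 0.598 and 0.941% of all gene counts, and the elongation factors together between 0.903 and 1.43%. Without Eef1a1 and Eef2 the share ran from 1.13 to 1.34% over the libraries.

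Per kilobase of annotated exon, levels spanned a wide range. Averaged over the 8 group means, Eef1a1 stood at 4417 CPM per kilobase, Eef2 at 899, the eIF3 subunit gene Eif3h at 469 and Eif5a at 413. At the low end were the Argonaute Eif2c3 (1.95), the eEF2 kinase Eef2k (2.02), Eif5a2 (2.94) and Eif2s3x (3.53). The inhibitors Eif4ebp2 (4.97) and Eif4ebp1 (5.65) were also low, against 32.2 CPM per kilobase for their target Eif4e. These levels per length are uncertain for genes with near-identical copies, since reads that map to several places were not counted. Of the 50-base words of the transcripts, 60.6% in Eef1a1, 64.3% in Eef1g, 65.3% in Eif4a1 and 36.2% in Eif2s3x occur in other genes and reads from those stretches may be uncounted.

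Most of the factors varied little. Leaving out Eif3j2, the highest group mean was above 1.5 times the lowest in 14 of 58 factors. It was above 2 times in 3 genes, namely the eIF4E inhibitor Eif4ebp1 (3.24 times), Eef2k (2.68 times) and Eif5a2 (2.29 times). The steadiest was Eif5b, the factor for joining of the ribosomal subunits, at 1.06 times. A gene was called changed when its p from edgeR's quasi-likelihood test, adjusted by the Benjamini-Hochberg method over all 13338 genes, was under 0.05. By that rule, without a replicate block, 17 factors, Eif3j2 included, were called in none of the 10 comparisons of 2 groups. Among them were Eif4e, Eif6, Eif5b, the eIF3 genes Eif3b, Eif3c, Eif3f, Eif3l and Eif3m, and the eIF2 beta subunit gene Eif2s2. At the other end, Eif3e was called in 6 comparisons.

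**Figure D1:**
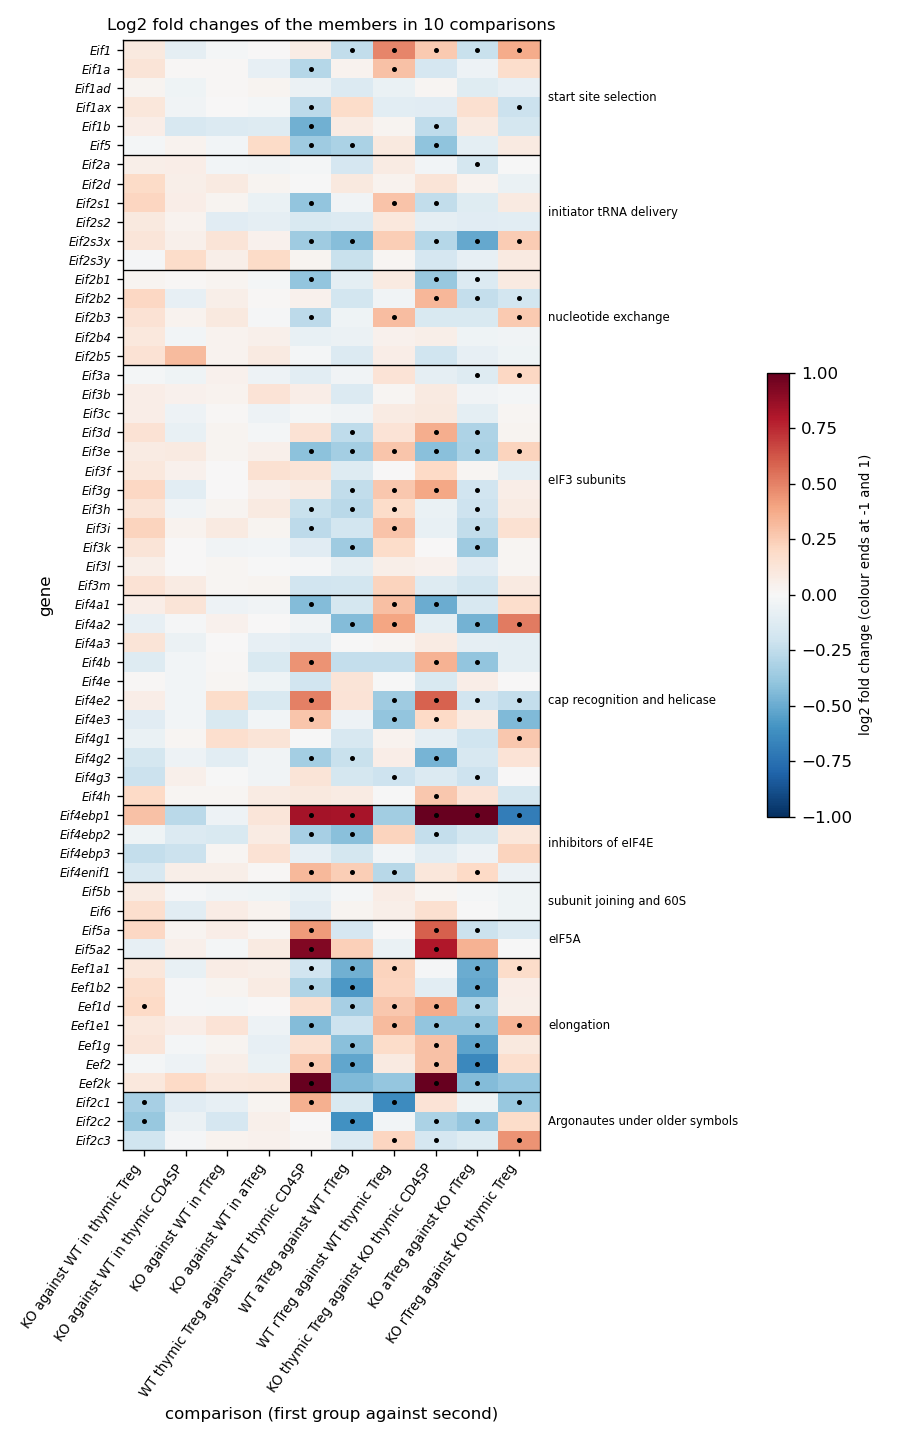
Log2 fold changes (colour, scale ending at -1 and 1) of 58 factors (rows, grouped by role) in 10 comparisons of 2 groups (columns); a dot marks an edgeR adjusted p under 0.05. The 4 genotype columns at the left are nearly empty of dots, with 3 in thymic Treg cells and 0 in the other populations, and the 2 aTreg against rTreg columns are mostly blue, with Eif4ebp1 the deepest red.

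The counts of changed factors followed the comparison. In aTreg against rTreg cells, 19 of 59 passed in WT mice, 2 higher and 17 lower, where 37.9% of all genes passed. In KO mice 27 of 59 passed, 2 higher and 25 lower, where 41.6% of all genes passed. The total was thus near the background, while the direction was not even: 18.1% of all genes were called lower and 19.9% higher in WT, and 19.9% lower and 21.7% higher in KO. In thymic Treg against CD4SP cells 27 of 59 passed in each genotype, against 48.3% of all genes in WT and 56.5% in KO. The split was 10 higher and 17 lower in WT, beside 26.8 and 21.6% of all genes, and 15 higher and 12 lower in KO, beside 30.0 and 26.5% of all genes. In rTreg against thymic Treg cells 19 passed in WT, 14 higher and 5 lower, where 30.6% of all genes passed, 13.9% higher and 16.7% lower. In KO 16 passed, 10 higher and 6 lower, where 42.9% of all genes passed, 19.6% higher and 23.3% lower. Without KO CD4SP library 2, 24 factors passed in KO thymic Treg against CD4SP cells, 15 higher and 9 lower. The calls of Eif2c3, Eif2s1 and Eif4ebp2 ended (adjusted p = 0.0908, 0.0975 and 0.0557), and no other member's call did. rTreg against thymic Treg cells also changes organ and splenic class together, and these cannot be told apart.

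Scaling to library totals without factors, an alternative chosen after seeing the data, moved these splits. In WT thymic Treg against CD4SP cells it gave 15 higher and 11 lower, in WT rTreg against thymic Treg cells 5 higher and 6 lower, and in KO rTreg against thymic Treg cells 9 higher and 12 lower. Every factor called with TMM factors kept its sign under library totals, upper-quartile factors and DESeq2's size factors. Because these are bulk samples, fewer cells of a type and less RNA per cell cannot be told apart.

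Most elongation factors fell in aTreg against rTreg cells. Of 7 tested, 5 were lower in aTreg than in rTreg cells of WT mice and 7 in those of KO mice. Of all genes 18.1 and 19.9% were called lower. The median log2 fold changes of the 7 were -0.44 and -0.50, against -0.01 and 0.01 over all genes. The 7 include Eef1e1 and the kinase Eef2k, which are described below. Eef1a1, which delivers aminoacyl-tRNA and lies at chr9:78478449-78489151 (minus strand, GENCODE M21 on GRCm38), was at 8719, 8787 and 8856 CPM in WT rTreg and at 6103, 6166 and 6605 CPM in WT aTreg libraries. In KO it was at 9498, 9231, 9347 and 8948 CPM in rTreg and at 6261, 5930.2, 7186 and 6855 CPM in aTreg libraries. Every aTreg library lay below every rTreg library, and indeed below all thymic ones, with log2 fold changes of -0.48 (SE 0.06, edgeR adjusted p = 7.85e-07) in WT and -0.50 (SE 0.06, adjusted p = 3.42e-08) in KO.

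Eef2, the translocase, at chr10:81176631-81182498 (plus strand), showed the same direction. Its levels were 3307, 3634 and 2838 CPM in WT rTreg against 2393, 2184 and 2235 CPM in WT aTreg libraries, and 3465, 3424, 3542 and 3128 CPM in KO rTreg against 2076, 2039, 2385 and 2197 CPM in KO aTreg libraries. The groups did not overlap in either genotype, and the log2 fold changes were -0.52 (SE 0.08, edgeR adjusted p = 8.95e-06) and -0.64 (SE 0.07, adjusted p = 2.80e-08). The subunits of the exchange factor eEF1B moved in the same direction. Eef1b2 had the largest fall of the WT elongation factors, from 755, 747 and 728 CPM in WT rTreg to 431, 494 and 576 CPM in WT aTreg libraries, a log2 fold change of -0.57 (SE 0.09). In KO it fell by 0.51 on the log2 scale (SE 0.07). Eef1g fell by 0.42 (WT) and 0.53 (KO), and Eef1d by 0.33 and 0.32.

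Eef1e1, a scaffold protein of the tRNA synthetase complex that is named with this family, fell in KO aTreg cells by 0.40 on the log2 scale (SE 0.09, edgeR adjusted p = 0.000882). In WT the groups overlapped and the test was not passed without a block. With the replicate number as a block the WT value was -0.22 (SE 0.09, edgeR adjusted p = 0.0481). Only 1 of the 3 same-numbered pairs of libraries correlated over 0.1 there. Eef2k, the kinase that phosphorylates and inhibits eEF2 (chr7:120842831-120907450, plus strand), was at 15.3, 15.5 and 14.4 CPM in WT rTreg against 12.5, 11.3 and 9.50 CPM in WT aTreg libraries. Its log2 fold change of -0.44 (SE 0.20) had an adjusted p of 0.0806 in edgeR. In KO, with a log2 fold change of -0.44 (SE 0.17), the adjusted p was 0.0443, and that call ended in 8 of 14 alternatives. The difference between the genotypes' fold changes, 0.01 (SE 0.26), did not pass.

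Between thymic Treg and CD4SP cells the elongation factors moved apart from each other. Eef2k had the largest change of any factor in WT, from 7.01, 8.38 and 8.37 CPM in CD4SP to 21.4, 20.4 and 17.5 CPM in thymic Treg libraries, a log2 fold change of 1.32 (SE 0.20, edgeR adjusted p = 3.72e-06). In KO thymic Treg libraries it was at 25, 17.5, 19.7 and 22.7 CPM. The KO CD4SP libraries were at 6.66, 15.1, 6.79 and 7.89 CPM, so that library 2, the one with most Treg, B-cell and myeloid marker counts, stood apart and yet below all thymic Treg libraries. The KO log2 fold change was 1.22 (SE 0.17), and 1.57 without that library. Eef2 itself was higher in thymic Treg cells, by 0.26 (SE 0.08) in WT and 0.29 (SE 0.07) in KO on the log2 scale. Eef1e1 fell by 0.44 and 0.39. Eef1a1 fell in WT by 0.19 (SE 0.06, adjusted p = 0.0143), a call that ended when either WT thymic Treg library 1 or WT CD4SP library 2 was left out and with library totals (adjusted p up to 0.0973). In KO its log2 fold change was -0.01 (SE 0.06).

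**Figure D2:**
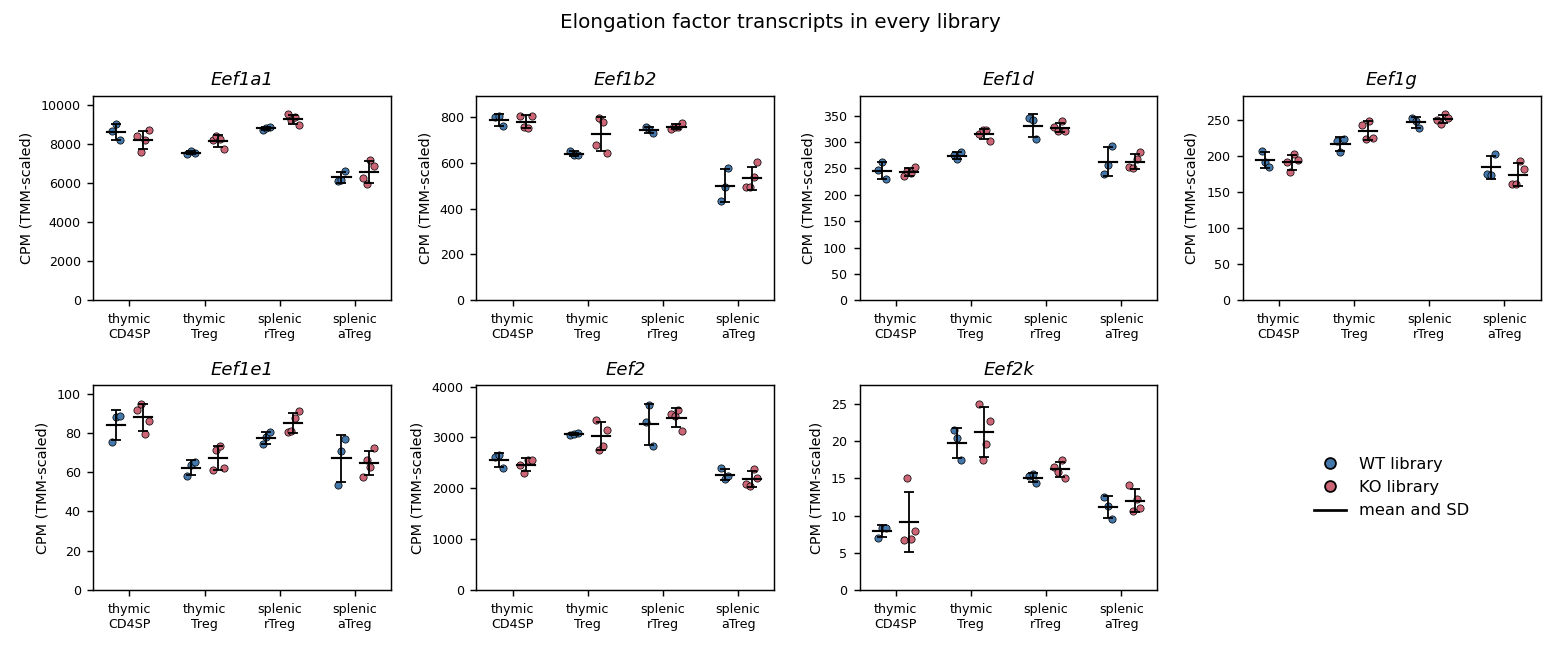
CPM on TMM-scaled library sizes (vertical axis, from 0) of 7 elongation factor genes in each library of the 4 populations (horizontal axis), WT in blue and KO in red, with the mean and SD of each group. Eef1a1, Eef1b2, Eef1g and Eef2 are lowest in aTreg cells, and Eef2k rises from about 8 CPM in WT CD4SP to about 20 CPM in WT thymic Treg cells.

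The inhibitors of the cap-binding protein did not move as one. Eif4ebp1, at chr8:27260329-27276674 (plus strand), encodes 4E-BP1, which sequesters eIF4E until mTORC1 phosphorylates it, and it was the factor with the widest range of all. WT CD4SP libraries were at 6.27, 7.37 and 6.12 CPM, WT thymic Treg at 9.0, 12.4 and 13.7, WT rTreg at 7.87, 10.2 and 9.58, and WT aTreg at 15.4, 15.9 and 17.6 CPM. KO libraries were at 4.05, 6.24, 6.37 and 5.23 CPM in CD4SP, at 11.2, 14.9, 17.4 and 13.9 in thymic Treg, at 6.84, 7.37, 11 and 10.4 in rTreg, and at 21.7, 14.4, 17.5 and 17.4 CPM in aTreg. Within each genotype all aTreg libraries lay above all rTreg libraries, and all thymic Treg libraries above all CD4SP libraries.

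The log2 fold change of Eif4ebp1 in aTreg against rTreg cells was 0.83 (SE 0.19, edgeR adjusted p = 0.00115) in WT and 0.99 (SE 0.17, adjusted p = 2.48e-05) in KO. In thymic Treg against CD4SP cells it was 0.83 (SE 0.20, adjusted p = 0.000890) in WT and 1.39 (SE 0.17, adjusted p = 9.87e-08) in KO. The difference between these genotype values, 0.56 (SE 0.26), had an adjusted p of 0.335 and did not pass. In rTreg against thymic Treg cells the gene fell in KO by 0.69 (SE 0.17, adjusted p = 0.00162), while the WT log2 fold change of -0.35 (SE 0.19) did not pass.

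Eif4ebp2, the second 4E-binding protein, moved the other way. It fell in WT aTreg against rTreg cells, from 30.1, 31.4 and 34.4 CPM to 22.2, 23.5 and 26.2 CPM, by 0.41 on the log2 scale (SE 0.11, edgeR adjusted p = 0.00367). The KO value of -0.18 (SE 0.10) did not pass. It also fell in thymic Treg against CD4SP cells, by 0.33 (SE 0.11, adjusted p = 0.0137) in WT and 0.24 (SE 0.10, adjusted p = 0.0365) in KO. The WT call ended without thymic Treg library 3 or CD4SP library 2 and with library totals (adjusted p up to 0.0702). The KO call ended in 7 of 14 alternatives, with adjusted p up to 0.186, and without KO CD4SP library 2 it was 0.0557. Eif4ebp3 passed in no comparison. Eif4enif1 encodes 4E-T, which carries eIF4E into the nucleus and into processing bodies. It rose in aTreg cells by 0.25 (SE 0.08) in WT and 0.20 (SE 0.07) in KO. The WT call ended when rTreg library 1 was left out (adjusted p = 0.116), and the KO call when rTreg library 1, aTreg library 1 or aTreg library 4 was (adjusted p up to 0.0921).

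Taking the genes as ratios of counts within a library removes the scaling between libraries. With the genotypes pooled, the ratio of Eif4ebp1 to Eif4ebp2 was 0.688 in 7 aTreg libraries (0.528 to 0.794) and 0.295 in 7 rTreg libraries (0.232 to 0.379). It was 0.484 in thymic Treg (0.308 to 0.617) and 0.180 in CD4SP libraries (0.120 to 0.204). Neither contrast overlapped, and each had an exact two-sided permutation p of 0.000583, the smallest that 3432 arrangements can give, adjusted to 0.00510 over the 70 ratio tests. For KO against WT, 0.0286 is the smallest exact p that 3 and 4 libraries allow. The ratios of Eif4g1 to Eif4g2 in rTreg, Eif4g1 to Eif4g3 in aTreg and Eif5a to Eif5a2 in thymic Treg cells were at it, with an adjusted p of 0.0870.

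Eif4e, the cap-binding protein itself, varied little. Its group means ran from 156 to 179 CPM, the highest being 1.15 times the lowest. Libraries lay between 142 and 188 CPM, and every group overlapped with its neighbours in the order of means. Its log2 fold change in WT thymic Treg against CD4SP cells was -0.19 (edgeR adjusted p = 0.0611), and it passed there with the replicate number as a block (-0.19, SE 0.06, adjusted p = 0.0141). The relatives Eif4e2 and Eif4e3, which bind the cap differently and are known as repressive or less active forms, did change. Eif4e2 was at 108, 111 and 114 CPM in WT CD4SP and at 147, 166 and 159.8 CPM in WT thymic Treg libraries, a log2 fold change of 0.50 (SE 0.08, edgeR adjusted p = 5.73e-06). The KO value was 0.59 (SE 0.07, adjusted p = 2.76e-08). From thymic Treg to rTreg cells Eif4e2 fell by 0.36 (SE 0.08) in WT and 0.24 (SE 0.07) in KO, and Eif4e3 by 0.40 (SE 0.08) and 0.44 (SE 0.07).

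The ratio of Eif4e to Eif4e2 was therefore 0.974 in thymic Treg libraries (0.898 to 1.11) and 1.61 in CD4SP libraries (1.47 to 1.72), with no overlap and an exact permutation p of 0.000583 (adjusted 0.00510). That of Eif4e to Eif4e3 was 1.78 in thymic Treg, 2.36 in CD4SP and 2.39 in rTreg libraries, with the same p for thymic Treg against each of the others.

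**Figure D3:**
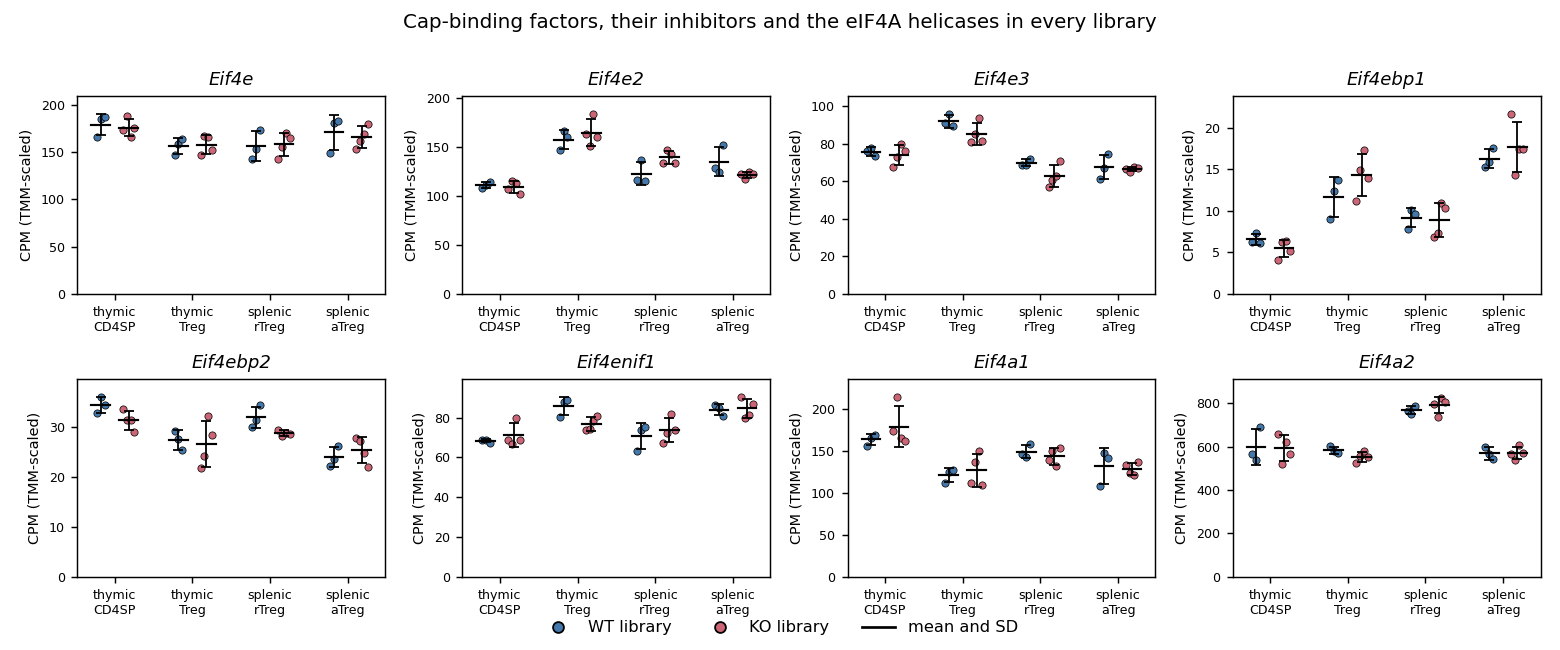
CPM on TMM-scaled library sizes (vertical axis, from 0) of the cap-binding genes Eif4e, Eif4e2 and Eif4e3, the inhibitors Eif4ebp1, Eif4ebp2 and Eif4enif1, and the helicases Eif4a1 and Eif4a2, in each library of the 4 populations, WT in blue and KO in red, with mean and SD. Eif4e keeps group means of 156 to 179 CPM, Eif4ebp1 is highest in aTreg and lowest in CD4SP cells, and Eif4a2 is highest in rTreg cells.

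The helicase genes Eif4a1 and Eif4a2, whose products unwind the mRNA leader, differed in pattern. Eif4a2 was at 764, 751 and 788 CPM in WT rTreg libraries and at 799, 739, 825 and 806 CPM in KO rTreg libraries, above every library of the other populations, of which the highest was 691 CPM. It fell in aTreg cells by 0.43 (SE 0.08, edgeR adjusted p = 9.89e-05) in WT and 0.47 (SE 0.07, adjusted p = 3.55e-06) in KO on the log2 scale. Against thymic Treg cells rTreg cells had more, by 0.40 (SE 0.08) and 0.52 (SE 0.07). Eif4a1 instead was lower in thymic Treg than in CD4SP cells, by 0.43 (SE 0.11) in WT and 0.50 (SE 0.10) in KO, and its log2 fold change in aTreg against rTreg cells was -0.17 (WT) and -0.16 (KO), neither of which passed.

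Of the scaffolds, Eif4g1 was steady, with group means from 113 to 141 CPM, and passed only in KO rTreg against KO thymic Treg cells (0.27, SE 0.08). Eif4g2, whose product lacks the eIF4E-binding part and acts in cap-independent initiation, was lower in thymic Treg than in CD4SP cells. WT libraries were at 1851, 1964 and 1934 CPM against 2174, 2565 and 2534 CPM, a log2 fold change of -0.34 (SE 0.08, edgeR adjusted p = 0.000491), and KO gave -0.46 (SE 0.07, adjusted p = 8.29e-07). It fell also in WT aTreg cells by 0.23 (SE 0.08). The KO value of -0.16 had an edgeR adjusted p of 0.0503, and of 0.0302 with the replicate number as a block. Eif4b, a cofactor of the helicase, was higher in thymic Treg than in CD4SP cells, at 476, 447 and 491 against 349, 364 and 324 CPM in WT (0.45, SE 0.10). The KO difference was 0.34 (SE 0.09), and there one thymic Treg library, at 357 CPM, lay within the CD4SP range.

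The eIF5A genes rose together in thymic Treg against CD4SP cells. eIF5A frees stalled ribosomes and needs the amino acid hypusine, and Eif5a2 is its rarer form. Eif5a was at 781, 794 and 769 CPM in WT CD4SP and at 1003, 1037 and 1106 CPM in WT thymic Treg libraries, a log2 fold change of 0.42 (SE 0.07, edgeR adjusted p = 2.35e-05), and in KO of 0.60 (SE 0.06, adjusted p = 4.84e-09). Eif5a2 went from 7.49, 7.54 and 10.6 CPM to 17.6, 15.5 and 15.8 CPM in WT, a log2 fold change of 0.93 (SE 0.18, adjusted p = 8.22e-05), and in KO the change was 0.80 (SE 0.16, adjusted p = 7.45e-05). The hypusine-forming enzyme genes Dhps and Dohh did not follow: neither passed in WT, and Dhps was lower in KO thymic Treg cells by 0.23 on the log2 scale (adjusted p = 0.0496).

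Among the factors for start codon choice, Eif1 and its close relative Eif1b diverged. Eif1 was highest in rTreg cells, at 475, 465 and 467 CPM in WT against 335, 338 and 332 CPM in WT thymic Treg libraries, a log2 fold change of 0.48 (SE 0.06, edgeR adjusted p = 7.05e-07), and of 0.37 (SE 0.05, adjusted p = 3.49e-06) in KO. It fell in aTreg against rTreg cells by 0.24 (SE 0.06) and 0.23 (SE 0.05). Eif1b was highest in CD4SP cells and lower in thymic Treg cells by 0.48 (SE 0.11) in WT and 0.25 (SE 0.10) in KO. The count ratio of Eif1 to Eif1b was 3.01 in CD4SP, 4.35 in thymic Treg, 6.17 in rTreg and 4.97 in aTreg libraries. The 2 steps from CD4SP to thymic Treg and from thymic Treg to rTreg each had an exact permutation p of 0.000583 (adjusted 0.00510). Eif5, the GTPase activator of eIF2, was lower in thymic Treg than in CD4SP cells by 0.35 (SE 0.09) in WT and 0.40 (SE 0.08) in KO.

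Of the eIF2 subunits, the alpha subunit gene Eif2s1, the target of the eIF2 kinases, was lower in thymic Treg than in CD4SP cells. WT libraries were at 164, 179 and 186 against 207, 238 and 251 CPM, a log2 fold change of -0.40 (SE 0.10, edgeR adjusted p = 0.00200). The KO value of -0.24 (SE 0.09, adjusted p = 0.0199) included CD4SP library 2, which stood at 277 CPM beside 233, 227 and 234 CPM. Without that library the change was -0.18 (adjusted p = 0.0975), and the call also ended without KO thymic Treg library 1 or 4. In rTreg against thymic Treg cells Eif2s1 rose in WT by 0.29 (SE 0.10, adjusted p = 0.0343), a call that ended in 5 of 12 alternatives, and the KO value of 0.09 (SE 0.09) did not pass.

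The gamma subunit of eIF2 has an X-linked gene, Eif2s3x, and a Y-linked gene, Eif2s3y, and all mice were male. Eif2s3x fell in aTreg against rTreg cells, from 14.9, 13.7 and 13.0 CPM to 10.3, 11.3 and 9.34 CPM in WT (-0.43, SE 0.12) and from 15.3, 14.5, 14.3 and 16.5 CPM to 9.52, 11, 11.3 and 10.7 CPM in KO (-0.51, SE 0.10). Eif2s3y passed in no comparison without a block. With the replicate number as a block it was lower in WT aTreg than in rTreg cells (-0.21, SE 0.06, edgeR adjusted p = 0.00327). It was then also lower in KO thymic Treg than in CD4SP cells (-0.16, SE 0.05, adjusted p = 0.00483). In neither comparison did every same-numbered pair of libraries correlate over 0.1. Its counts were far higher than those of Eif2s3x, but 36.2% of the words of Eif2s3x are shared with other genes, so their levels are not compared. In each of the 4 WT populations library 2 had the lowest Eif2s3y level, 195, 202, 191 and 176 CPM in CD4SP, thymic Treg, rTreg and aTreg cells, beside 221 to 274 CPM in the other WT libraries.

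The eIF2B subunits, which recharge eIF2 with GTP, had log2 fold changes between -0.19 and -0.05 in WT aTreg against rTreg cells and did not pass. In KO, Eif2b1 and Eif2b2 were lower, by 0.14 (SE 0.05) and 0.24 (SE 0.07). Eif2b1 was lower in thymic Treg than in CD4SP cells in both genotypes, by 0.39 (SE 0.06, edgeR adjusted p = 3.23e-06) in WT and 0.38 (SE 0.05, adjusted p = 4.53e-07) in KO. Eif2b3 rose from thymic Treg to rTreg cells by 0.31 (SE 0.09) in WT and 0.26 (SE 0.08) in KO. Eif2b5, the catalytic subunit, passed in no comparison.

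The eIF3 complex, the largest of the factors, fell in part in aTreg cells. Of its 13 tested subunit genes, Eif3j2 included, 5 were lower in WT and 7 in KO, beside 18.1 and 19.9% of all genes called lower. Eif3d, Eif3e, Eif3g, Eif3h and Eif3k were lower in both, and Eif3j2 was called in neither. Eif3a, the scaffold of the complex, had log2 fold changes of -0.04 (SE 0.06, not passed) in WT and -0.13 (SE 0.05, edgeR adjusted p = 0.0459) in KO, the latter lost in 10 of 14 alternatives. Eif3e showed the widest range, with its highest group mean 1.48 times the lowest. It was at 564, 540.5 and 607 CPM in WT rTreg, 402, 468 and 484 in WT aTreg, 462, 483 and 466 in WT thymic Treg, and 587, 652 and 639 CPM in WT CD4SP libraries. Its log2 fold changes were -0.34 (SE 0.08, adjusted p = 0.00111) for aTreg against rTreg and -0.41 (SE 0.08, adjusted p = 8.01e-05) for thymic Treg against CD4SP cells. The KO values of -0.31 and -0.42 also passed, and no aTreg library overlapped with an rTreg library. With the replicate number as a block Eif3l (-0.12, adjusted p = 0.0478) and Eif3m (-0.18, adjusted p = 0.0469) were also lower in KO aTreg than in rTreg cells. In contrast Eif3c and Eif3b had highest group means only 1.09 and 1.14 times the lowest. Eif6, which keeps the large ribosomal subunit from joining too early, had group means between 54.1 and 60.9 CPM and passed in no comparison without a block. With the block it was higher in KO thymic Treg than in CD4SP cells (0.15, SE 0.06, edgeR adjusted p = 0.0441). Not every same-numbered pair of libraries correlated over 0.1 there (3 of 4).

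Of the Argonautes, Eif2c2 (Ago2, the slicing Argonaute) fell in aTreg against rTreg cells, from 58.7, 52.5 and 60.4 CPM to 38.8, 40.6 and 33.4 CPM in WT, a log2 fold change of -0.61 (SE 0.13, edgeR adjusted p = 0.000321), and in KO of -0.39 (SE 0.11, adjusted p = 0.00512). Eif2c1 (Ago1) fell from thymic Treg to rTreg cells, from 48.4, 52.4 and 48.7 CPM to 33.0, 30.6 and 32.9 CPM in WT (-0.63, SE 0.10, adjusted p = 1.03e-05) and by 0.38 (SE 0.08) in KO. Eif2c3 (Ago3) rose in that comparison by 0.22 (SE 0.08) in WT and 0.45 (SE 0.07) in KO.

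The WT and KO versions of each population comparison share no library. In aTreg against rTreg cells 16 factors were called in both genotypes, all in the same direction, which is 84.2% of the WT calls and 59.3% of the KO calls, beside 80.7 and 73.5% for all tested genes. They were the 2 that rose, Eif4ebp1 and Eif4enif1, and 14 that fell. For thymic Treg against CD4SP cells 18 were called in both, 66.7% of each list, 8 higher and 10 lower, beside 82.8 and 70.8% for all genes. For rTreg against thymic Treg cells 10 were called in both, 52.6% of the WT and 62.5% of the KO calls, beside 78.3 and 55.8% for all genes. Across the 59 genes, which are not independent replicates, the log2 fold changes of the genotypes had Pearson's r of 0.90, 0.90 and 0.66 in aTreg against rTreg, thymic Treg against CD4SP and rTreg against thymic Treg cells, beside 0.85, 0.89 and 0.84 over all tested genes.

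**Figure D4:**
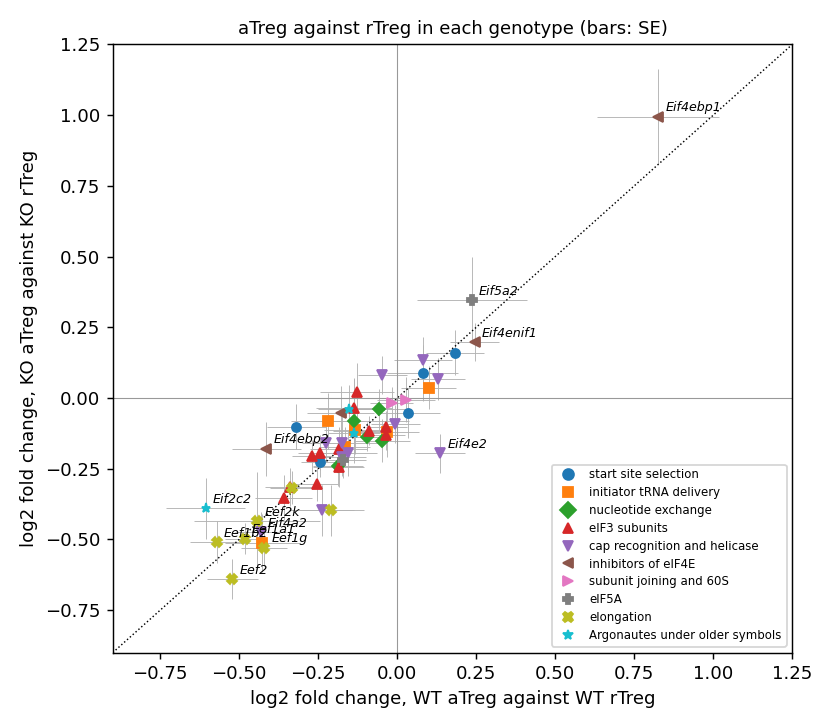
Log2 fold change of aTreg against rTreg cells in WT mice (horizontal axis) and in KO mice (vertical axis) for 58 factors, marked by role, with SE as bars and the dotted line of equal change. Elongation factors lie at the lower left, with Eef2 at -0.52 and -0.64, and Eif4ebp1 stands alone at the upper right at 0.83 and 0.99.

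Markers of other cell types moved with these comparisons. In aTreg against rTreg cells 6 of 10 myeloid markers were higher in each genotype, with sums of 290.3 to 345 CPM in WT aTreg against 120.2 to 125 CPM in WT rTreg libraries, and 211 to 239 against 106 to 129 CPM in KO. B-cell markers summed to 95.8 to 119 CPM in WT aTreg and 64.8 to 78.7 CPM in WT rTreg libraries, with 0 of 5 called. Stromal and epithelial markers were higher in aTreg cells for 2 of 3 in each genotype, with sums of 15.7 to 28 against 2.94 to 3.95 CPM in WT and 26.3 to 35.9 against 4.34 to 5.57 CPM in KO. Dendritic cell markers were higher for 2 of 4 in WT and 1 of 4 in KO. In aTreg against rTreg cells 19.9% of all genes were called higher in WT and 21.7% in KO. In thymic Treg against CD4SP cells 7 of 10 myeloid markers in WT and 8 in KO were higher, as were all 5 B-cell markers, with B-cell sums of 31.6 to 34.5 against 5.90 to 7.14 CPM in WT. In rTreg against thymic Treg cells 6 myeloid markers in WT and 8 in KO were lower, while 4 of 5 B-cell markers in WT and 3 in KO were higher. Of all genes 26.8% in WT and 30.0% in KO were called higher in thymic Treg against CD4SP cells. In rTreg against thymic Treg cells 16.7 and 23.3% of all genes were called lower, and 13.9 and 19.6% higher. None of the myeloid or B-cell markers was at 0 in a group. The part of such cells in the results between populations was not tested.

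Few of the factors passed between KO and WT cells. In thymic Treg cells 3 of 59 passed, 1 higher and 2 lower, where 9.34% of all genes passed, 4.21% higher and 5.13% lower. These were Eef1d, the eEF1B delta subunit, and the Argonautes Eif2c1 and Eif2c2. Eef1d was at 275, 268 and 280.2 CPM in WT and at 315, 322, 322 and 301 CPM in KO thymic Treg libraries, a log2 fold change of 0.20 (SE 0.06, edgeR adjusted p = 0.0436). Eif2c1 was at 48.4, 52.4 and 48.7 CPM in WT and at 34.5, 47.5, 36.0 and 39.8 CPM in KO, a change of -0.34 (SE 0.09, adjusted p = 0.0162). Eif2c2 was at 60.4, 62.1 and 52.9 CPM in WT and at 36.8, 51.0, 43.0 and 48.7 CPM in KO, a change of -0.38 (SE 0.12, adjusted p = 0.0360). For these 3 genes the genotypes' libraries did not overlap, but this does not set them apart. Factors that were not called also showed no overlap, such as Eef1a1 (WT up to 7606, KO from 7718 CPM) and Eif5a (WT up to 1106, KO from 1132 CPM). The share of all genes without overlap was not counted. The calls were not firm: of 16 alternatives, that of Eef1d ended in 12 (adjusted p up to 0.959), that of Eif2c2 in 7 (up to 0.870) and that of Eif2c1 in 6 (up to 0.496). The covariate fits given below are among the alternatives that ended each call.

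The median log2 difference of the 59 factors between KO and WT thymic Treg cells was 0.10, against 0.02 over all genes, and 18 factors, 11 higher and 7 lower, had an unadjusted p under 0.05. That is 30.5% of the factors, beside 26.6% of all genes. Just outside the threshold, Eif5a had a log2 difference of 0.20 (SE 0.07, edgeR adjusted p = 0.0599). Eif4e (0.01, SE 0.08), Eef2 (-0.02, SE 0.08), Eif4ebp2 (-0.04, SE 0.10) and Eef1a1 (0.11, SE 0.06) did not pass.

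The number passing in this comparison depended on the libraries and the scaling. Leaving out WT library 2, KO library 1 or KO library 3 gave 0, leaving out WT library 1 gave 1, and leaving out KO library 4 gave 9. Upper-quartile factors gave 5 higher and 2 lower, DESeq2 gave 5 higher and 3 lower, and library totals 0 higher and 3 lower. Myeloid markers moved with the genotype here. Their sum was 401 to 941 CPM in KO and 269.6 to 375 CPM in WT thymic Treg libraries, 4 of 10 were higher in KO and none was at 0. B-cell markers summed to 48.2 to 52.3 CPM in KO and 31.6 to 34.5 CPM in WT, with 0 of 5 called, and stromal and epithelial markers to 7.04 to 10.7 and 3.89 to 5.53 CPM, with 1 of 3 called higher. Of 5 markers of activated and resting T cells 2 were higher in KO. In this comparison 4.21% of all genes were called higher. The part of these cells in the genotype results was not tested. The share of counted reads that fell outside genes was 43.1% ± 1.3 (SD, n = 4) in KO and 47.5% ± 1.6 (SD, n = 3) in WT. With the log2 myeloid sum as a covariate 0 factors passed in edgeR (12 at an unadjusted p under 0.05), while the log2 differences were 0.20 for Eef1d, -0.34 for Eif2c1 and -0.32 for Eif2c2. With the share outside genes in its place 0 passed (3 at an unadjusted p under 0.05), and the differences were 0.04, -0.29 and -0.15. The share outside genes was 42.3 to 45.0% in KO and 46.3 to 49.3% in WT thymic Treg libraries. Neither covariate thus overlapped between the genotypes there. These fits therefore cannot tell the covariate and the genotype apart, and no conclusion is drawn from the calls lost in them.

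**Figure D5:**
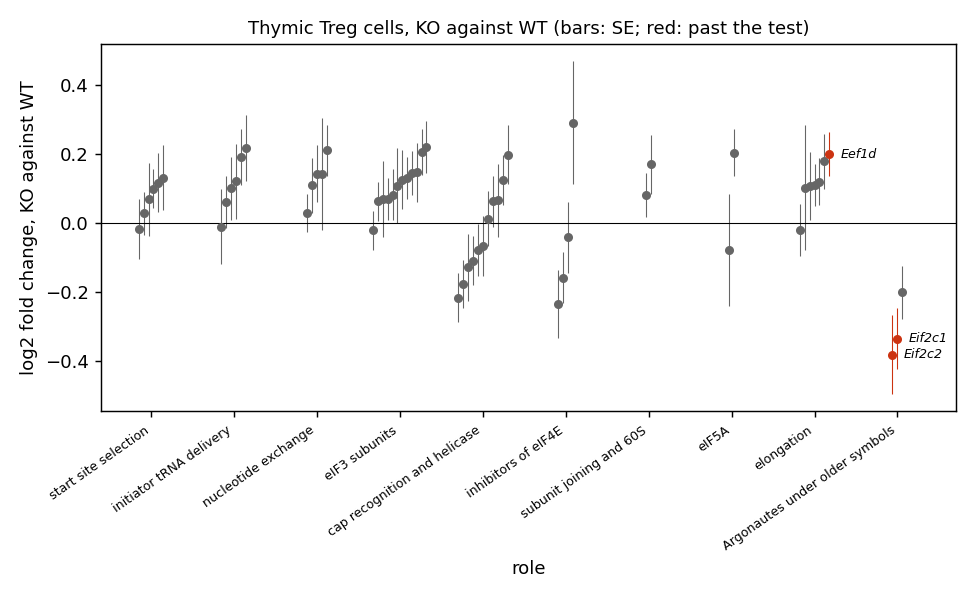
Log2 fold change of KO against WT thymic Treg cells (vertical axis) for 58 factors by role (horizontal axis), with SE as bars and the genes past the test in red. Most lie between -0.2 and 0.2, with Eef1d at 0.20 and Eif2c1 and Eif2c2 at -0.34 and -0.38.

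In the other populations no factor passed in edgeR for KO against WT. This was so in CD4SP cells, where 0.195% of all genes passed and 1 factor and 6.21% of all genes had an unadjusted p under 0.05, in rTreg cells (0.135% of all genes passed; 2 factors and 6.16% of genes at an unadjusted p under 0.05) and in aTreg cells (0.0300%; 1 factor and 6.73% of genes), and DESeq2 called 0 in each. The KO effect itself was compared between populations. Between thymic Treg and CD4SP cells 0 factors passed (0.615% of all genes), with 10 factors (16.9%) and 13.8% of all genes at an unadjusted p under 0.05, and 1 factor called by DESeq2. Between aTreg and rTreg cells 0 passed (0% of all genes, 1 at an unadjusted p under 0.05 beside 4.63% of all genes), and between rTreg and thymic Treg cells 0 passed (0.0300% of all genes, 5 at an unadjusted p under 0.05 beside 9.88% of all genes), with 0 by DESeq2 in both. The calls made in thymic Treg cells are therefore not shown to differ from the effect in another population.

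The kinases and targets around these factors were counted from lists chosen with the factors. The 4 eIF2 kinase genes all changed in thymic Treg against CD4SP cells, 3 higher and 1 lower in each genotype. There 48.3% of all genes passed in WT and 56.5% in KO. Eif2ak2 (PKR, which senses double-stranded RNA) was higher by 0.61 on the log2 scale in WT and 0.59 in KO, and Eif2ak3 (PERK, the kinase of the endoplasmic reticulum) was lower by 0.80 and 1.03. Eif2ak2 was also higher in aTreg than in rTreg cells, at 103, 109 and 109 against 62.5, 68.0 and 69.2 CPM in WT, a log2 fold change of 0.69, and of 0.29 in KO. In WT 1 of the 4 kinases passed there, beside 37.9% of all genes. In rTreg against thymic Treg cells Eif2ak2 was lower by 0.82 (SE 0.10) in WT and 0.70 (SE 0.09) in KO.

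Of 11 tested targets of the integrated stress response, the programme that eIF2 phosphorylation starts, 3 rose and 3 fell in WT aTreg against rTreg cells, and 2 rose and 3 fell in KO. Of all genes 37.9% passed in that comparison in WT and 41.6% in KO. The listed targets went in opposite directions. Asns, which makes asparagine, was at 7.73, 8.51 and 8.14 CPM in WT aTreg and at 0.680, 1.3 and 2.02 CPM in WT rTreg libraries, and Trib3, a pseudokinase, fell by 1.60 on the log2 scale in WT and 1.14 in KO. In thymic Treg against CD4SP cells, where 48.3% of all genes passed in WT and 56.5% in KO, 2 rose and 1 fell in WT. In KO 4 rose and 2 fell. Asns was higher there by 5.49 in WT and 4.94 in KO on the log2 scale, from CD4SP means of only 0.0555 and 0.169 CPM. Sesn2, a brake on mTORC1, was higher there by 2.26 and 2.07. In rTreg against thymic Treg cells 3 rose and 2 fell in WT, and 4 rose and 2 fell in KO, beside 30.6 and 42.9% of all genes called. There Ppp1r15a (GADD34, which directs the phosphatase of eIF2 alpha) was at 374, 363 and 327 CPM in WT rTreg and 42.0, 39.6 and 39.6 CPM in WT thymic Treg libraries, a log2 fold change of 3.13. Atf4, the central transcription factor of the programme, rose by 0.57 in WT and 0.56 in KO.

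Of 13 listed genes of mTORC1 and its pathway, 4 fell and 0 rose in WT aTreg against rTreg cells, and 5 fell and 1 rose in KO. The list was thus called at a rate near that of all genes, of which 37.9% passed in WT and 41.6% in KO. Larp1, which represses mRNAs with terminal pyrimidine runs, was at 161, 158 and 151 CPM in WT rTreg and at 98.7, 106 and 92.5 CPM in WT aTreg libraries, a log2 fold change of -0.66 (edgeR adjusted p = 8.01e-07), and of -0.68 in KO. Pdcd4, an inhibitor of the eIF4A helicase, fell by 0.57 in WT aTreg cells. Neither Larp1 nor Pdcd4 is a part of the mTORC1 complex itself. In thymic Treg against CD4SP cells 6 rose and 1 fell in WT, and 3 rose and 3 fell in KO, beside 48.3 and 56.5% of all genes called. Rragd, a Rag GTPase of amino acid sensing, was higher there by 2.88 and 3.07. Rheb, the GTPase that switches mTORC1 on, was lower by 0.47 in WT. Rptor, which recruits the substrates of mTORC1, fell by 0.38 in WT rTreg against thymic Treg cells. In KO against WT thymic Treg cells, where 9.34% of all genes passed, 1 of the 13 passed, Rps6kb1 (S6 kinase 1), which fell by 0.33. Of 10 tested termination and recycling factors, 2 fell and 0 rose in aTreg against rTreg cells in each genotype, beside 18.1 and 19.9% of all genes called lower in WT and KO. These included Abce1, which splits the ribosome after termination, which fell by 0.34 in WT and 0.37 in KO. The other was Paip2b, an inhibitor of the poly(A)-binding protein, which fell by 0.34 in WT and 0.39 in KO. In thymic Treg against CD4SP cells 3 fell and 0 rose in WT, and 4 fell and 1 rose in KO, beside 48.3 and 56.5% of all genes called. Abce1 was lower there by 0.56 and 0.65, and Paip2 by 0.26 in each. In rTreg against thymic Treg cells 1 rose and 2 fell in WT, and 2 rose and 3 fell in KO, beside 30.6 and 42.9% of all genes called. Among those that fell was Paip1, a partner of the poly(A)-binding protein, lower by 0.21 and 0.29.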

How the data were processed

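The deposited files hold the authors' raw read counts per gene symbol, 1 file a library. TRIzol extraction and SMART amplification of cDNA are given per the labels' protocols. The submitters' processing notes name mm10 as the build and HTSeq, STAR and Trimmomatic as tools, without versions; annotation and strand setting are likewise not stated in what was used here. Lines that name no gene were left out of library sizes and tests, and 42.3 to 49.7% of the counted reads fell outside genes. The deposited counts leave reads that map to several places uncounted.

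A single model with 1 mean for each of the 8 groups was fitted to the 28 libraries in edgeR 4.0.16 (R 4.3.3; TMM factors 0.970 to 1.04, filterByExpr, quasi-likelihood test, 20 residual degrees of freedom), with Benjamini-Hochberg adjustment over 13338 genes at 0.05. CPM are on TMM-scaled library sizes. Count ratios of related genes were tested by exact two-sided permutation. The procedure was tested on simulated data. Alternatives were DESeq2 1.42.0, other scalings, no filter, the groups compared alone, covariates, a replicate block and leaving out libraries. The labels do not say what a replicate number marks. The deviations of same-numbered libraries from their group means had a correlation over 0.1 in every pair of WT thymic Treg with WT CD4SP cells (0.107 to 0.133) and of KO rTreg with KO aTreg cells (0.121 to 0.232). By that criterion these libraries may be paired. The other comparisons did not meet it (5 of 12 pairs between genotypes). The main fit used no pairing in any comparison, so fold changes, SEs and p-values are unpaired except where a block is named. The exact permutations kept no pairs either, and those over 7 libraries of a population did not keep the genotypes apart. Pairs of libraries in a group differed beyond sampling noise (chi-square per degree of freedom 7.08 to 37.6).

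Exon lengths and shared words came from GENCODE M21 (GRCm38) and promoters from RefSeq (GRCm38.p6). Of the symbols, 59 were found as they stand in GENCODE and 4 through the older names that GENCODE genes carry. This gene family, its members, the lists and the alternatives were chosen with earlier results of these data known, while membership follows the symbol rule and uses no value. The rule named 13 genes central to their roles, up to 4 rises and 4 falls in each comparison among genes whose higher group reached 5 CPM, and the 2 genes with the smallest p of each other list. Genes of the other lists are not given in every comparison that they passed. Other genes named were chosen after their values were seen.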

Additional observations from a re-analysis of the deposited data

Results flagged for a closer look

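In groups of 4 to 10 libraries, a library was marked when its gap to the nearest other library was a large part of the group's range. This was so for 5 of 128 sets of 4 KO libraries of a gene and 7 of 36 sets of 7 libraries of a count ratio, and chance marks about 1 set in 20. KO CD4SP library 2 was high for 3 genes: Eef2k at 15.1 CPM (others 6.66 to 7.89), Eif5a2 at 10.5 CPM (others 8.22 to 8.43) and Eif2s1 at 277 CPM (others 227 to 234). The same library had the highest Treg, B-cell and myeloid marker sums of the CD4SP libraries, whose part was not tested. Eif2b3 was high in KO aTreg library 4 at 51.4 CPM (others 41.0 to 41.8), and Eif2b5 was low in KO CD4SP library 1 at 20.9 CPM (others 31.1 to 32.2).

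Among the count ratios, Eif4a1 to Eif4a2 was high in KO CD4SP library 2 (0.411, others up to 0.307). Eif4ebp1 to Eif4ebp2 was low in KO CD4SP library 1 (0.120, others from 0.177). Eif4g1 to Eif4g2 was high in KO thymic Treg library 3 (0.0899, others up to 0.0689), and Eif5a to Eif5a2 in WT aTreg library 3 (73.6, others up to 53.0). Eif4e to Eif4e2 was high in WT rTreg library 3 (1.5, others up to 1.23). Eif2s3x to Eif2s3y was high in WT CD4SP library 2 (0.0815, others up to 0.0613) and in WT aTreg library 2 (0.0645, others up to 0.0468).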

How the results depend on the processing

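The count of factors passing for KO against WT in thymic Treg cells, 3 in the fit described, was the least stable. It was 8 with DESeq2, 7 with upper-quartile factors, 1 with only the groups compared in the fit, 1 without KO libraries 1 and 2 together, and 0 with either covariate, and it ran from 0 to 9 over the libraries left out in turn. With the replicate number as a block it was 8. The block moved no other count by more than 1.5 times. In the 6 comparisons between populations it ended no factor's call and added 1 to 4, 1 in WT thymic Treg against CD4SP cells (28 in place of 27) and 3 in KO aTreg against rTreg cells (30 in place of 27). The difference of KO effects between thymic Treg and CD4SP cells had 1 factor with DESeq2 and 0 in the fit described. WT rTreg against thymic Treg cells had 11 with library totals and 19 in the fit described. The counts of the other comparisons stayed within 1.5 times under every alternative run, and no value of a named gene changed direction where it had been called. Leaving out libraries in turn gave 23 to 29 for WT and 24 to 26 for KO thymic Treg against CD4SP cells, 20 to 24 and 22 to 28 for aTreg against rTreg cells, and 13 to 17 and 14 to 19 for rTreg against thymic Treg cells. Replicate number, 3 against 4 libraries at most, limits what changes could pass, and the group with 1 library fewer keeps the spread estimated over all groups.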
